A study of Mus musculus with 14 samples.

Results

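The comparison described here set RNA of embryoid bodies (EBs) of the shDis3l2 line against that of the shLacZ line after 8 days of differentiation, with 1 library a side, which is 2 of the 14 libraries of the series (2 lines at d0, d2, d4, d6, d8, d10 and d12). Both lines are mouse embryonic stem cells (mESCs) that carry an Osr1-GFP reporter and stably express a short hairpin RNA, directed against Dis3l2 in shDis3l2 and against the bacterial gene LacZ, which the cells lack, in the control shLacZ. The cells were kept undifferentiated with LIF and the 2 inhibitors of 2i, and both lines were then differentiated in the same way, in hanging drops with serum and without LIF and 2i, followed by culture in suspension. PolyA RNA was sequenced, and the authors deposited read counts per gene. The day was chosen because the level of Dis3l2 itself was equal in its 2 libraries, as shown next, although the lines carry different hairpins.

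DIS3L2 is a cytoplasmic exoribonuclease that digests RNA from the 3′ end and prefers RNAs bearing a tail of uridines, among them several noncoding RNAs, and its loss in humans causes Perlman syndrome, an overgrowth disorder with kidney tumors. EBs are aggregates in which ESCs leave pluripotency and give rise to a mixture of cell types. The outer layer is commonly an extraembryonic endoderm that resembles the visceral endoderm of the embryo and secretes plasma proteins, while the interior holds cells of epiblast type and, later, mesoderm and its mesenchymal, vascular, blood and muscle derivatives. A bulk library mixes all of these, so that fewer cells of a type and less RNA per cell cannot be told apart.

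At d8, 341 reads of shLacZ and 385 of shDis3l2 fell on Dis3l2 (ENSMUSG00000053333, GRCm38 chromosome 1 from 86703808 to 87050095), which is 20.2 and 19.6 CPM, the reads scaled to 1000000 reads on genes. The shDis3l2 library thus held 97.1% of the shLacZ level, with a 95% Clopper-Pearson interval of 83.7 to 113%. The percentage was 55.2% (44.9 to 67.5%) 2 days earlier and 94.98% (78.8 to 115%) at d10, so a lower level of the targeted transcript was not detectable in the library labelled shDis3l2 at d8. The knockdown was deepest at d0, with 13.7% (11.1 to 16.7%), and d2 and d4 gave 28.1% and 32.1%. By d12 the percentage was again below 100, at 75.4% (60.9 to 93.4%). Whether the hairpin was still active in the EBs of d8 was not tested, nor does the level of Dis3l2 check the label of that library. The level of DIS3L2 protein is not known from these data. Here and below, the interval of a ratio covers counting error only and compares the 2 libraries, not the lines, since 1 library a side leaves no replicate check and no p-value.

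**Figure D1:**
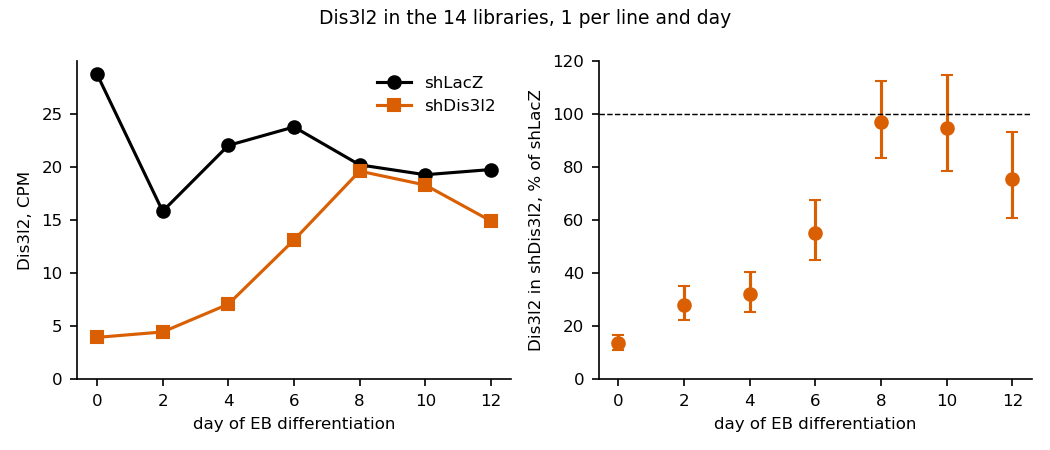
Dis3l2 in the 14 libraries by day of EB differentiation, in CPM (left, circles for shLacZ and squares for shDis3l2) and as the percentage of shLacZ held by shDis3l2 (right), with bars for its 95% Clopper-Pearson interval and 100% as the dashed line. At d8 the libraries stood at 20.2 and 19.6 CPM, and the interval of 83.7 to 113% includes 100%.

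The 2 libraries were of similar depth, with 16901814 reads on genes in shLacZ and 19653485 in shDis3l2, and the other 12 libraries held 7178712 to 39888099. A floor of 3 counts corresponds to 0.177 CPM in the first and 0.153 CPM in the second. A gene was compared where it reached 1 CPM in 1 of the 2 libraries, and it was called higher or lower where its fold, with a prior count of 0.25, was at least 3. Of 13462 protein-coding genes compared, 737 (5.47%) were higher in shDis3l2 and 499 (3.71%) were lower, and 8630 (64.1%) differed by less than 1.5-fold either way. The median log2 fold of all genes compared was 0.03. At least 5-fold differences were found for 304 genes higher and 163 lower, and at least 10-fold differences for 82 and 31. The interval of the ratio excluded 1 for every one of the 737 and the 499 genes. The minimum of 1 CPM and the 3-fold rule all but fix this outcome, so it is no check of the calls. At or under the floor stood 61 of the genes higher, in shLacZ, and 31 of those lower, in shDis3l2. Genes higher held 1.17% of the reads of shLacZ (exact binomial 95% interval 1.16 to 1.17%) and 5.71% of those of shDis3l2 (5.70 to 5.73%). Genes lower held 2.26% (2.25 to 2.26%) and 0.584% (0.581 to 0.587%). Both sets were chosen by these same reads, so the direction of the 2 shifts follows from the calls.

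**Figure D2:**
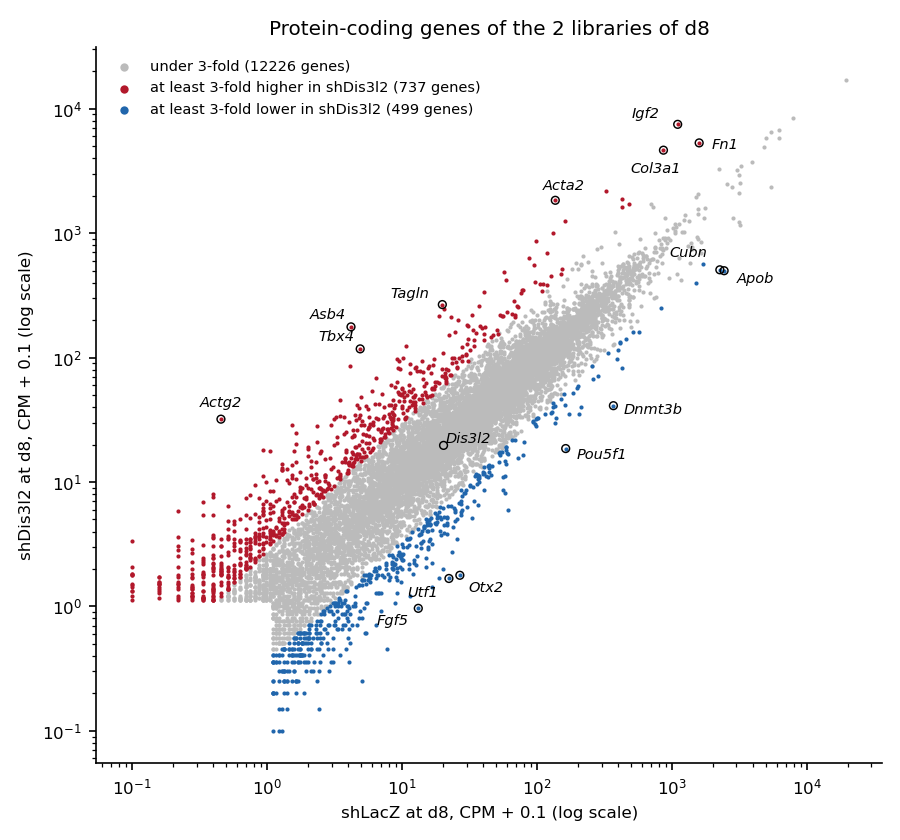
CPM of the 13462 protein-coding genes compared in the shLacZ library (x axis) and the shDis3l2 library (y axis) of d8, both on log scales after adding 0.1, with the 737 genes at least 3-fold higher in red, the 499 at least 3-fold lower in blue and circles around the genes named. Dis3l2 lies on the diagonal, at 20.2 and 19.6 CPM, while Actg2, Asb4 and Tbx4 lie far above it and Otx2, Fgf5 and Pou5f1 far below.

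Genes of the contractile apparatus of smooth muscle were higher, and 3 of the 12 largest rises of single genes (Actg2, Acta2 and Tagln) were among them. Of 12 smooth muscle-like markers, all compared, 10 were higher in shDis3l2 and none lower, with a median log2 fold of 3.13 against 0.03 over all genes, and their summed level was 226.5 CPM in shLacZ and 2343 CPM in shDis3l2. Actg2, the enteric gamma-actin, had 6 reads in shLacZ and 627 in shDis3l2, which is 89.9-fold higher (95% interval 41.1 to 246) and the largest rise by the bound of its interval nearest to 1 among genes reaching 10 CPM. Acta2, the alpha-actin of vascular smooth muscle, went from 2303 to 36129 reads and was 13.5-fold higher (12.9 to 14.1). Tagln, the actin-binding protein transgelin, had 334 and 5242 reads, 13.5-fold (12.1 to 15.1), and Tpm2, a tropomyosin that lies along the actin filament, 283 and 1703 reads, 5.17-fold (4.56 to 5.89). Per length, Acta2 stood at 76.5 reads per kilobase of gene and per 1000000 reads (RPKM) in shLacZ and 1032 RPKM in shDis3l2. The markers under 3-fold were Smtn, with 610 and 975 reads, and Synpo2, with 151 and 460.

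Sarcomere genes of the heart followed in part. Of 16 cardiomyocyte-like genes compared, 6 were higher and none lower, with a median of 1.36. The summed level of all 19 on the list was 120.6 and 249.9 CPM. Actc1, cardiac alpha-actin, had 24 and 558 reads, 20.0-fold higher (13.3 to 31.5). The troponins Tnni1 (81 and 675 reads) and Tnnt2 (38 and 410 reads) were 7.17-fold (5.68 to 9.14) and 9.28-fold (6.65 to 13.3) higher, and the atrial light chain Myl4 9.50-fold (6.25 to 15.1). Myl3, Ttn and Tnnc1, which build the same filaments, were under 3-fold, Myl3 with 170 and 164 reads and Ttn with 123 and 154. The 6 genes higher were Actc1, Tnni1, Tnnt2, Myl4, Myl7 and Myl2, the ventricular light chain, whose 2 and 113 reads give a ratio of 48.6 (13.1 to 406). Nkx2-5, Nppa and Pln were not compared, being under 1 CPM in both libraries.

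The promoters of 4 of these muscle genes are shown because contractile genes are known targets of the serum response factor, which binds CArG boxes, and because the start site of each was in RefSeq (GRCm38.p6). Genes and motif were chosen after the values were seen, and other muscle genes with a window are not shown. Myl9, the smooth muscle regulatory light chain, had 100 and 1063 reads (9.14-fold, 7.44 to 11.3) and Myl7, an atrial light chain, 23 and 191 (7.14-fold, 4.62 to 11.5). Each window runs 5′ to 3′ on the strand of the gene from 250 bases before to 50 after the start site, and capitals mark CC, then 6 bases of which at least 5 are A or T, then GG. The windows are chr19:34255324-34255623 on the minus strand for Acta2, chr2:114052826-114053125 on the minus strand for Actc1, chr11:5898733-5899032 on the minus strand for Myl7 and chr2:156775214-156775513 on the plus strand for Myl9.
Acta2: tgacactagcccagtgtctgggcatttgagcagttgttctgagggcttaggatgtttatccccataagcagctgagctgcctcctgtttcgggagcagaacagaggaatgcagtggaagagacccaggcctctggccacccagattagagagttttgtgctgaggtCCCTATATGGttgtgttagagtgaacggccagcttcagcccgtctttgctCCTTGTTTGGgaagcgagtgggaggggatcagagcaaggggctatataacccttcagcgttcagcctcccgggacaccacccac
Actc1: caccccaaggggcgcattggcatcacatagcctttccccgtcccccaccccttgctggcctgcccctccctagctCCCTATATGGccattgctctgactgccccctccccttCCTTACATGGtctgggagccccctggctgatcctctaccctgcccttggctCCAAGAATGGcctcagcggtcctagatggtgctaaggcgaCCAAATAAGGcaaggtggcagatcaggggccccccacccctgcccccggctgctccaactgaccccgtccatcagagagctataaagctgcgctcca
Myl7: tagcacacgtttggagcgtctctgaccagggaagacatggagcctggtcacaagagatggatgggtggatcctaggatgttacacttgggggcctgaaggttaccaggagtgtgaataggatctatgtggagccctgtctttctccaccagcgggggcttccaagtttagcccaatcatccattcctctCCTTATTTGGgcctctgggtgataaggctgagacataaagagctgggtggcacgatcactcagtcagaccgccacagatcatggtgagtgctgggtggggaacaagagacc
Myl9: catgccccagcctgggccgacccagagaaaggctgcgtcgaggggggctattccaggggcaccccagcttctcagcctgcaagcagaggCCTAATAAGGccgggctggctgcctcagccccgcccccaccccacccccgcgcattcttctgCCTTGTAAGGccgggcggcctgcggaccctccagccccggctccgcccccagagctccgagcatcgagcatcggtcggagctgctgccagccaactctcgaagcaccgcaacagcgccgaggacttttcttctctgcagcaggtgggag
The pattern equals its own reverse complement, so 1 search covers both strands. Acta2 held 2 matches, Actc1 4, Myl7 1 and Myl9 2, and of these 1 each in Actc1, Myl7 and Myl9 had A or T in all 6 places, the strict form. A strict match was found in 1.63% of all 32851 promoter windows and in 172 of 10330 genes compared that had a window (1.67%). It was present in 17 of 505 genes higher (3.37%) and in 0 of 367 genes lower. The looser form was found in 11.5% of the genes higher, 12.3% of those lower and 10.6% of all genes compared. Of the smooth muscle-like markers, 8 had a window, with no strict match and 1 looser one, that of Acta2. All 16 cardiomyocyte-like genes compared had a window, 3 of them with a strict match (Actc1, Myl3 and Myl7). The looser form was found in 5, these 3 and Myh6 and Ttn, and Myl3, Myh6 and Ttn were under 3-fold. A match is a stretch of letters and says nothing on whether a factor was bound.

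**Figure D3:**
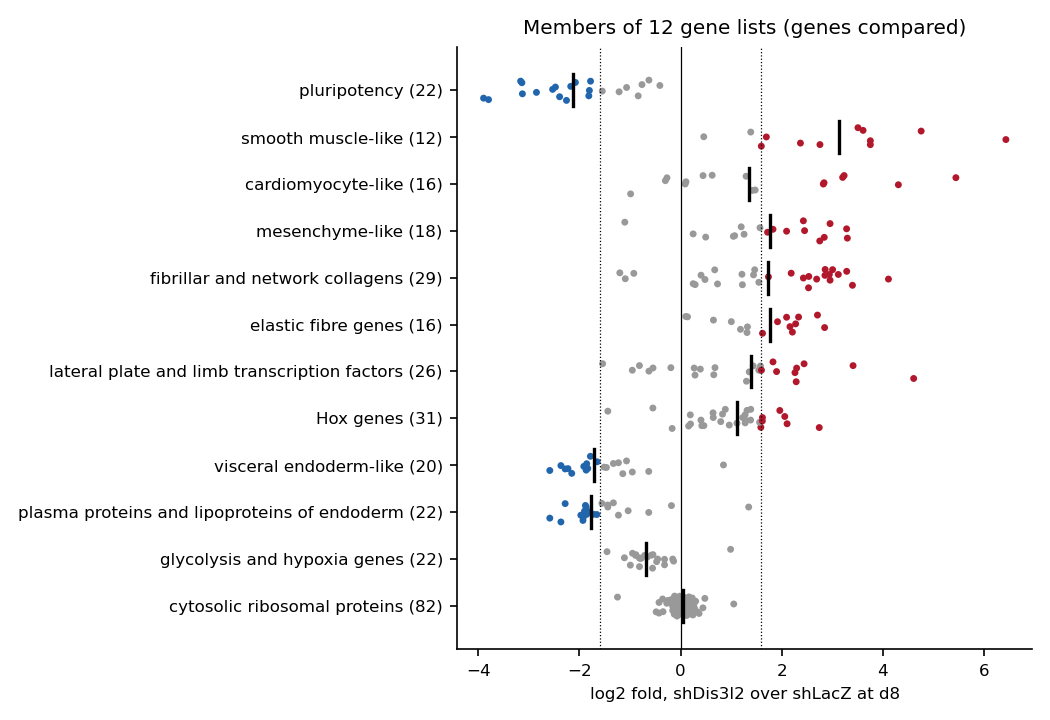
Log2 fold of shDis3l2 over shLacZ at d8 for each compared member of 12 gene lists (1 point per gene, number of genes in parentheses), with genes at least 3-fold higher in red, at least 3-fold lower in blue, the list median as a black bar, and 3-fold either way as dotted lines. The 12 smooth muscle-like genes lie to the right of 0, the 22 pluripotency genes lie to the left, and the 82 ribosomal protein genes lie around 0.

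Mesenchyme and extracellular matrix genes were higher as well. Of 18 mesenchyme-like genes compared, 10 were higher and none lower (median 1.77). The summed level of all 20 on the list was 2038 CPM in shLacZ and 9876 CPM in shDis3l2. Col3a1, a chain of fibrillar collagen, had 14585 and 91331 reads (5.39-fold, 95% interval 5.29 to 5.48) and Postn, the matricellular protein periostin, 5478 and 42955 reads (6.74-fold, 6.56 to 6.94). The proteoglycan Lum, lumican, had 997 and 8312 reads (7.17-fold, 6.71 to 7.66). The whole list did not move alike. Pdgfra, a receptor of mesenchymal progenitors, had 5125 and 7082 reads, and Thy1 52 and 28.

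Of 29 collagen chains compared, 15 were higher and none lower (median 1.74). The fibrillar chains Col1a1 (2713 and 24490 reads, 7.76-fold, 7.46 to 8.08), Col1a2 (1670 and 16882 reads, 8.69-fold, 8.27 to 9.15) and Col5a1 (2215 and 19802 reads, 7.69-fold, 7.36 to 8.04) were among those higher. The basement membrane chains Col4a1 and Col4a2 stood the other way without reaching 3-fold, at 0.435 (0.430 to 0.440) and 0.469 (0.462 to 0.476) of shLacZ, so that the summed level of all 32 on the list moved less than the fibrillar chains, from 10110 to 12960 CPM. Both lie on chromosome 8, whose median is given below. Col4a1 and Col4a2 are named here after their values were seen. Laminins, the other main basement membrane proteins, had 2 of 11 chains higher, Lama2 (63 and 352 reads, 4.805-fold, 3.67 to 6.39) and Lamc3 (11 and 44 reads), while the abundant Lama1, Lamb1 and Lamc1 stood at 0.428, 0.533 and 0.546 of shLacZ. The median of the laminins was 0.51, and -0.34 over the 8 chains reaching 5 CPM, while their summed level was 4797 CPM in shLacZ and 2624 CPM in shDis3l2.

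Elastic fibre genes had 9 of 16 members higher and none lower (median 1.77), among them the fibrillins Fbn1 (1132 and 5632 reads, 4.28-fold, 4.01 to 4.57) and Fbn2 (1761 and 7740 reads, 3.78-fold, 3.59 to 3.98) and the fibre-associated Emilin1 and Mfap4 (5.04- and 4.63-fold). Of 6 small leucine-rich proteoglycans compared, 4 were higher (median 2.54), including Dcn, decorin, with 171 and 1959 reads (9.85-fold, 8.42 to 11.6). Ogn, another of them, had 3 and 37 reads, a ratio of 10.6 (3.36 to 53.8). Genes that process collagen had 4 of 21 higher and 1 lower (median 0.80). Pcolce, an enhancer of procollagen cleavage, rose 6.64-fold (6.07 to 7.26) and its relative Pcolce2 stood at 0.234 of shLacZ (0.131 to 0.400). Matrix proteases and their inhibitors had 9 of 22 higher and 1 lower (median 1.53), with the aggrecanase Adamts1 at 661 and 3382 reads and Mmp14, a membrane-bound collagenase, 3.34-fold higher. Among the genes of highest level that were called, Fn1, fibronectin, had 26820 and 104488 reads (3.35-fold, 3.31 to 3.40), and Vcan, the proteoglycan versican, 7211 and 36919 (4.403-fold, 4.29 to 4.52).

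Transcription factors of lateral plate mesoderm and limb bud were higher in 9 of 26 cases and lower in none (median 1.40). Tbx4, a T-box factor of hindlimb and allantois, had 81 and 2308 reads, 24.5-fold (95% interval 19.6 to 31.0), and Pitx1, which acts upstream of it in the hindlimb, 188 and 1190 reads (5.44-fold, 4.66 to 6.38). Prrx1, of limb mesenchyme, had 198 and 818 reads (3.55-fold, 3.04 to 4.17), and Hand2, on chromosome 8, 448 and 1943 (3.73-fold, 3.36 to 4.14). Gata4, a factor of both mesoderm and endoderm that is on this list, had 4174 and 2504 reads. Of 31 Hox genes compared, 28 had a positive log2 fold and 7 were at least 3-fold higher, with none lower (median 1.11). The 4 highest of those called were Hoxa10 (139 and 631 reads, 3.90-fold), Hoxa11 (63 and 492, 6.72-fold), Hoxa13 (94 and 457, 4.18-fold) and Hoxa9 (102 and 365, 3.08-fold), all of the posterior end of 1 cluster on chromosome 6. The others called were Hoxb3, Hoxc4 and Hoxc11. Posterior genes of other clusters did not all follow. Hoxd13 (93 and 149 reads) and Hoxd10 (48 and 97) were under 3-fold, and Hoxc13 (68 and 29) had a lower level without being called. Somite factors were scarce, with 5 of 22 compared, of which Foxc2 (3 and 25 reads) and Pax1 (1 and 23 reads) were higher and Tcf15 (38 and 3 reads) lower. Cartilage and bone genes had 3 of 16 higher and none lower (median 0.31, and -0.33 over the 9 reaching 5 CPM), the highest being Sox6 (162 and 1007 reads, 5.35-fold, 4.52 to 6.35).

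Pluripotency genes were lower, and 6 of the 12 largest falls were of this list. All 22 of its genes were compared, all 22 had a lower level in shDis3l2 and 15 were at least 3-fold lower, with none higher (median -2.13), and their summed level was 1703 CPM in shLacZ and 470.9 CPM in shDis3l2. Pou5f1, the factor OCT4, had 2752 reads in shLacZ and 363 in shDis3l2, or 0.113 of shLacZ (95% interval 0.101 to 0.127). Dnmt3b, a de novo DNA methyltransferase of the epiblast, had 6209 and 805 reads (0.112, 0.103 to 0.120), and its cofactor Dnmt3l 1032 and 115 (0.0958, 0.0783 to 0.116). Dnmt3l, Otx2 and Zic2 are not on the list. Otx2, a factor of the primed epiblast and of the anterior neural plate, showed the largest fall by its interval, from 451 to 33 reads (0.0629, 0.0428 to 0.0897). Utf1, a chromatin factor of ESCs, had 374 and 31 reads, the growth factor Fgf5 of the primed epiblast 221 and 17, and Zic2 282 and 26. Sox2 (403 and 84 reads) and Nanog (619 and 206 reads), named after their values were seen, were at 0.179 (0.140 to 0.227) and 0.286 (0.243 to 0.336). The 7 genes under 3-fold were Klf2, Klf4, Klf5, Tfcp2l1, Tbx3, Lin28a and Sall4. Several of these are factors of the naive state, but so are Esrrb (364 and 73 reads) and Zfp42 (977 and 216), which were called lower. Germline genes, several of which ESCs also transcribe, had 7 of 15 lower and 1 higher (median -1.25), with Sycp3, of the meiotic chromosome axis, at 238 and 64 reads and the germ cell helicase Ddx4 at 111 and 23. The gene higher, Stra8, had 1 and 21 reads.

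Pou5f1 is given here by day as 1 gene of the list. It stood at 740 CPM in shLacZ at d4, 117 CPM at d6, 163 CPM at d8 and 218 CPM at d10, while shDis3l2 had 886, 14.2, 18.5 and 41.6 CPM. The shDis3l2 library of d8 was thus the lower of the pair, as at d6 and d10, and at d4 it was the higher. The median of the list was -0.49 at d4, -2.56 at d6, -1.17 at d10 and -0.55 at d12.

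**Figure D4:**
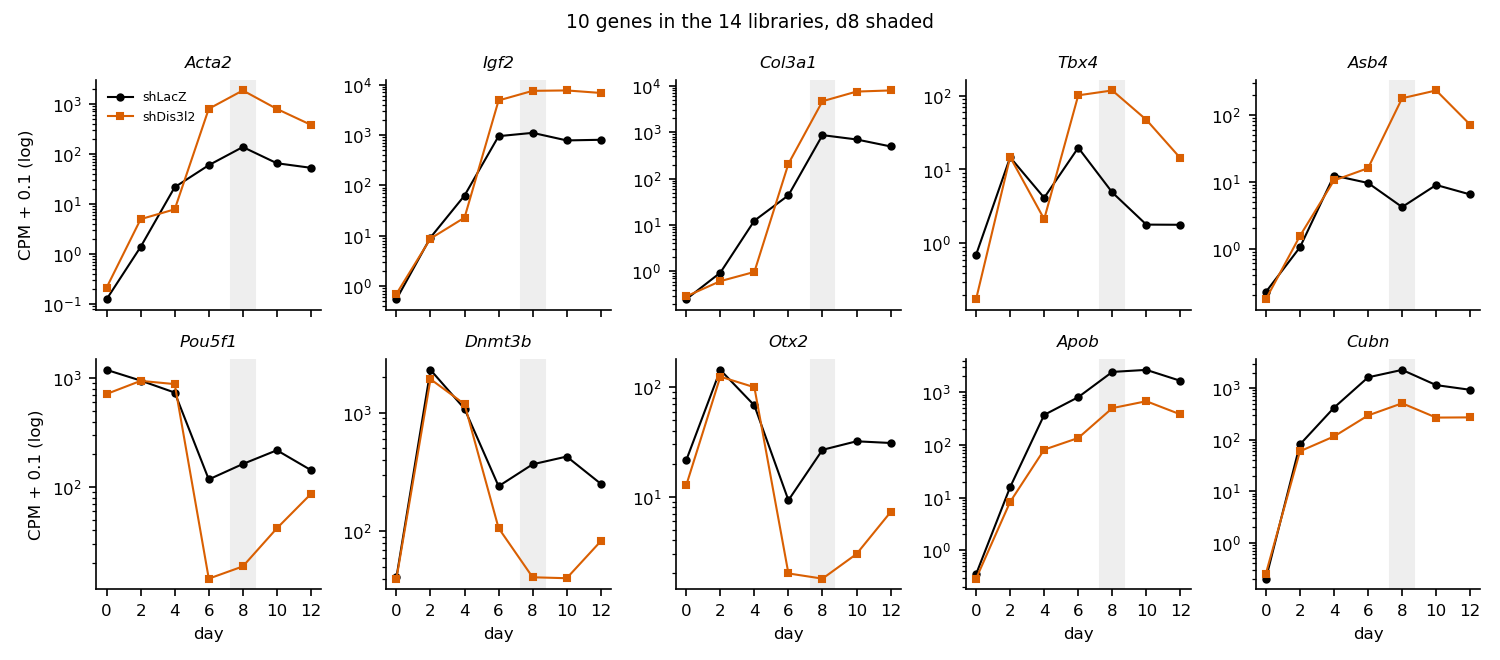
CPM plus 0.1 on a log scale (y axis) by day of differentiation (x axis) for 10 genes in the 14 libraries, 1 per line and day, with circles for shLacZ, squares for shDis3l2 and d8 shaded. At d8 Acta2, Igf2, Col3a1, Tbx4 and Asb4 were higher in shDis3l2, and Pou5f1, Dnmt3b, Otx2, Apob and Cubn were lower.

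Genes of the visceral endoderm were lower. Of 20 visceral endoderm-like markers, 11 were lower and none higher (median -1.72), and their summed level was 11190 CPM in shLacZ and 3373 CPM in shDis3l2. Apob, the structural protein of secreted lipoproteins, had 41059 and 9809 reads (0.205 of shLacZ, 95% interval 0.201 to 0.210), the carrier Ttr 9624 and 3135 (0.280, 0.269 to 0.292) and Afp, alpha-fetoprotein, 7176 and 1617 (0.194, 0.183 to 0.205). The endocytic receptors Cubn (38157 and 9978 reads, 0.225, 0.220 to 0.230) and Lrp2 (25325 and 7816 reads, 0.265, 0.259 to 0.272), which take up nutrients at the apical surface of this layer, were lower too. Gata6, an endoderm factor that heart and mesoderm also use, was the 1 marker of the 20 with a higher level, at 1204 and 2521 reads, under 3-fold. Trf, transferrin, was the least abundant of the 20, with 27 and 5 reads. These markers moved with the rise of the mesenchyme and muscle genes between the same 2 libraries, and the part of such a shift in cell types in any single gene was not tested.

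A longer list of plasma proteins and lipoproteins had 13 of 22 genes lower and none higher (median -1.78), and that of endocytic receptors and lysosomal genes 6 of 18 lower and none higher (median -1.34). The proteases Lgmn (28760 and 11106 reads, 0.332) and Ctsh (14056 and 4964 reads, 0.304) were among the 6 genes of highest level that were lower. Of 18 endoderm transcription factors compared, 7 were lower and none higher (median -1.11), including Hnf4a, a master regulator of hepatic and visceral endoderm genes, with 1725 and 639 reads (0.319, 0.290 to 0.349), and Eomes, of mesendoderm and visceral endoderm, with 252 and 46 (0.157, 0.112 to 0.216). Parietal endoderm-like genes had 1 of 11 lower and none higher (median -0.87), that 1 being Fst, the activin antagonist follistatin (742 and 253 reads). Epithelial genes had 3 of 20 lower and none higher (median -1.08), with Grhl2, a regulator of epithelial junctions, at 269 and 89 reads (0.284, 0.221 to 0.363). The lists overlap, so that Apob and Ttr, for example, count in more than 1 of them.

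Ligands and receptors of several signaling pathways were called, in both directions, beside 5.47% higher and 3.71% lower over all genes compared. With 1 gene of 14 called, as for Notch, a list is near that background. Among Wnt genes, 6 of 35 were higher and 3 lower (median 0.23). The ligand Wnt2 had 68 and 1684 reads (21.3-fold, 95% interval 16.7 to 27.6), and the secreted inhibitors Sfrp1, on chromosome 8, and Dkk2 had 390 and 4157 reads (9.17-fold, 8.26 to 10.2) and 160 and 1600 reads (8.60-fold, 7.31 to 10.2). The primitive streak target T, with 116 and 23 reads, and the ligand Wnt8a, with 43 and 11, were lower. FGF genes had 5 of 21 lower and none higher (median -0.85), led by Fgf5 and by Fgf4 (393 and 52 reads, 0.114, 0.0835 to 0.152), an ESC product, with the ERK target Etv5 at 1587 and 593 (0.321, 0.292 to 0.353).

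Nodal and TGF-beta genes split, with 3 of 19 higher and 6 lower (median 0.42). The Nodal co-receptor Tdgf1 (982 and 158 reads, 0.138, 0.116 to 0.164), the ligand Gdf3 (281 and 42 reads) and the inhibitor Lefty2 (270 and 66 reads) were lower. The ligand Tgfb3 (32 and 374 reads, 10.1-fold, 6.998 to 14.9) and the TGF-beta-induced matrix protein Tgfbi (343 and 4852 reads, 12.2-fold, 10.9 to 13.6) were higher. Inhba, the activin A subunit, had 0 and 39 reads, at least 11.2-fold higher against the floor of 3 counts in shLacZ. The median of 24 BMP genes compared was 0.28. Hedgehog genes had 3 of 13 higher (median 0.96), namely the transcription factor Gli2 (348 and 1342 reads), the co-receptor Gas1 (106 and 646) and the ligand Shh (30 and 121). Retinoic acid genes had 5 of 15 higher (median 0.67), although the summed level of all 19 on the list was 648.5 and 576.2 CPM. The receptor Rarb had 32 and 357 reads (9.59-fold, 6.67 to 14.2) and the synthetic enzyme Aldh1a2 80 and 328. Notch genes had 1 of 14 higher, Heyl with 8 and 54 reads (median -0.02). None of the hedgehog, retinoic acid and Notch genes was 3-fold lower.

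Igf2, a fetal growth factor transcribed from the paternal allele, was the gene of highest level among those called, with 18590 reads in shLacZ and 147329 in shDis3l2, which is 1100 and 7496 CPM or, per length, 192 and 1310 RPKM (6.82-fold, 95% interval 6.71 to 6.92). Its clearance receptor Igf2r, transcribed from the maternal allele, was higher too, with 7150 and 32072 reads (3.86-fold, 3.76 to 3.96). The insulin-like growth factor axis had 5 of 16 genes higher and none lower (median 0.70), the others including the binding proteins Igfbp5 (3.27-fold) and Igfbp7 (10.8-fold). Imprinted genes of the paternal allele had 5 of 20 higher (median 0.57) and those of the maternal allele 7 of 18 (median 0.97), with none lower in either list. Asb4, a maternally expressed component of ubiquitin ligases and the second largest rise by the interval bound, had 69 and 3469 reads (43.2-fold, 34.1 to 55.7). Dlk1 (967 and 9517 reads, 8.46-fold) and Plagl1 (8114 and 33788 reads, 3.58-fold), both paternally expressed, and Grb10 (1993 and 13731 reads, 5.92-fold) and the cell cycle inhibitor Cdkn1c (212 and 1639 reads, 6.65-fold), both maternally expressed, were higher as well. The counts do not separate alleles.

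The study named 8 calcium genes and 16 renal genes from these same samples, so their direction is not independent evidence. All 8 calcium genes had a higher level in shDis3l2 at d8, and none reached 3-fold (median 0.89). Their folds ran from 1.56 (95% interval 1.30 to 1.87) for Camk2a, with 190 and 344 reads, to 2.61 (1.65 to 4.29) for Camk4, with 25 and 76. Pkd1, the polycystin whose loss causes polycystic kidneys, had 753 and 2115 reads (2.42-fold, 2.22 to 2.63), and its partner Pkd2 835 and 1653 (1.70-fold, 1.57 to 1.85). The interval of Rgn, regucalcin, with 25 and 49 reads, was 1.02 to 2.85. The remaining kinases stood between these folds, Camk1 at 2.27, Camk1g at 1.97 and Camk2g at 1.75. Genes of calcium handling in the endoplasmic reticulum (ER) had 1 of 21 higher, Casq1 with 3 and 25 reads, and none lower (median 0.20). That count is near the 5.47% higher over all genes compared.

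Of the 16 renal genes, 13 were compared, 4 were higher and none lower (median 1.36). These 4 were Igf2, Ptn, a heparin-binding growth factor (313 and 4271 reads, 11.7-fold, 95% interval 10.5 to 13.2), Hoxa11 and Osr1, the early factor of intermediate mesoderm that the reporter of the line follows (8 and 93 reads, 10.0-fold, 4.87 to 23.8). Factors of the nephron progenitors themselves stood closer to 1. Six2 had 21 and 18 reads (0.737, 0.370 to 1.45), Wt1 47 and 98 (1.79-fold, 1.25 to 2.60) and Eya1 64 and 199 (2.67-fold, 2.01 to 3.60). Wnt11 had 309 and 407 reads, Hoxd11 30 and 85, Synpo 187 and 557, Col4a5 1019 and 3222 and Col4a6 608 and 1640, all under 3-fold. Osr2, at 1.02 CPM in shDis3l2, had 10 and 20 reads. Gdnf (5 and 17 reads), Tfap2b (2 and 2) and Fgf9 (0 and 3) were under 1 CPM in both libraries. Of 17 other nephron and podocyte genes compared, 5 were lower and 1 higher (median -0.96). Among those lower were Ret, the receptor of GDNF (141 and 43 reads), Nphs1, nephrin (83 and 30), and Sall1, on chromosome 8 (2349 and 635), and the gene higher was Itga8 (288 and 1106). Several of these are used outside the kidney, Sall1 for example in ESCs.

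Of the genes close to the known functions of DIS3L2, Rpph1 was the 1 called. None of 23 genes of the signal recognition particle (SRP) and the translocon was called in either direction (median 0.07), nor any of 28 genes of the unfolded protein and integrated stress responses (median -0.19), in which the ER chaperones Calr, on chromosome 8, and Hsp90b1 had 29230 and 26144 and 17045 and 21446 reads. None of 28 genes of RNA decay and uridylation was called (median -0.16). The 2 of highest level were Lin28a, which brings uridyl transferases to the let-7 precursor and is a pluripotency gene as well (6213 and 2468 reads, 0.342, 95% interval 0.326 to 0.358), and Zcchc11, the uridyl transferase TUT4 (1887 and 3517 reads, 1.603-fold, 1.51 to 1.70). Of 10 noncoding RNA targets of DIS3L2, 2 reached 1 CPM, and Rpph1, the RNA of ribonuclease P, was the 1 called, with 63 and 21 reads (0.287, 0.166 to 0.476). Most such RNAs carry no polyA tail, and libraries of polyA RNA do not measure them well.

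Housekeeping groups differed little. None of 82 cytosolic ribosomal protein genes (median 0.04), 74 nuclear genes of oxidative phosphorylation (median 0.06), 13 mitochondrially encoded genes (median 0.06), 25 cell cycle genes (median -0.20) and 18 cholesterol synthesis genes (median -0.10) was called. Cdkn1c was the 1 of 20 cell cycle inhibitors and p53 targets that was higher, with none lower (median -0.19). That count is near the 5.47% higher over all genes compared. Hist2h2be, with 6 and 27 reads, was the 1 of 7 histone genes that was higher (median -0.40). Of 4 Y chromosome genes and Xist compared, none was called (median -0.35). Glycolysis and hypoxia genes showed a shared displacement under the threshold. None of 22 was 3-fold changed, yet 21 had a lower level in shDis3l2 (median -0.68). The summed level of all 24 on the list was 10020 CPM in shLacZ and 5456 CPM in shDis3l2. Slc2a3, a glucose transporter, had 54129 and 22952 reads (0.365, 95% interval 0.359 to 0.370), and Pkm, pyruvate kinase, 26377 and 17665 (0.576, 0.565 to 0.587). Hk1, hexokinase 1, was the exception, with 320 and 739 reads.

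Other lineages gave mixed or small differences. Over all genes compared, 5.47% were higher and 3.71% lower, and 1 of 19 higher, as for endothelial-like genes, is near that share. Blood-like genes had none of 16 called (median 0.35), the embryonic globins Hbb-y and Hbb-bh1 standing at 2.47-fold (95% interval 2.38 to 2.56) and 1.39-fold (1.35 to 1.44). Endothelial-like genes had 1 of 19 higher, Kdr, the VEGF receptor that also marks early mesoderm (1194 and 5147 reads, 3.71-fold, 3.48 to 3.95), and 3 lower (median -0.23), which were the endothelial specifier Etv2 (21 and 3 reads), Apln (230 and 61) and Sox7 (612 and 218), also a factor of endoderm. Neural-like genes had 10 of 20 compared, with 2 higher, the intermediate filament Nes (427 and 1618 reads, 3.26-fold) and Dcx (4 and 21 reads), and 3 lower (median 0.03), Otx2, Elavl3 (29 and 8 reads) and Neurod1 (23 and 4). Chemokine, cytokine and interferon genes had 8 of 21 higher and 1 lower with a median of -0.29, so the list did not move as a block. Cxcl12, a chemokine of stromal cells, had 894 and 4347 reads (4.18-fold) and its scavenger receptor Ackr3 188 and 1052 (4.81-fold), and the interferon-induced Ifit1 and Ifit3 had 11 and 153 and 4 and 104 reads.

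Adhesion and guidance molecules gave the following counts, beside 5.47% higher and 3.71% lower over all genes compared. Protocadherins had 11 of 40 higher and none lower (median 1.30), with Pcdh18 at 576 and 2706 reads (4.04-fold). The beta and gamma clusters share exons, so the counts of their single genes are uncertain. Classical cadherins had 3 of 13 higher and 2 lower (median 0.62), with Cdh2, N-cadherin, at 591 and 3118 reads (4.54-fold, 95% interval 4.15 to 4.96). Cdh1, E-cadherin, on chromosome 8 and named after its values were seen, had 8277 and 3874 reads (0.402, 0.387 to 0.418). Semaphorins, ephrins and Eph receptors had 9 of 38 higher and none lower (median 0.60), among them Epha7 (209 and 1609 reads, 6.62-fold) and Sema3a (143 and 644, 3.87-fold). Integrins had 5 of 24 higher and 1 lower (median 0.61), with Itga4, a fibronectin and VCAM1 receptor subunit, at 107 and 1337 reads (10.8-fold, 8.82 to 13.2) and Itgb7, of leukocytes, at 26 and 3.

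Of 2614 genes of other types compared, 85 were higher and 83 lower, both smaller shares than the 5.47% and 3.71% of protein-coding genes. These include processed pseudogenes, whose counts share sequence with their parent genes and are uncertain. Dnm3os, a noncoding transcript opposite Dnm3 that hosts the miR-199a and miR-214 hairpins, had 22 and 402 reads (15.7-fold, 95% interval 10.2 to 25.4), and the ESC transcripts Platr10 and Lncenc1 had 538 and 58 and 451 and 91 reads. These 3 were chosen after their values were seen, and the strand setting of the counting is not given in the sources used here, so the reads of Dnm3os cannot be told apart from those of Dnm3. The 12 largest rises also held the potassium channel Kcnk3 (14 and 354 reads, 21.8-fold), the adhesion protein Negr1 (16 and 344, 18.5-fold), Adamtsl1 (26 and 488, 16.1-fold) and Ptn. The 12 largest falls also held Vrtn (317 and 31 reads), Dnmt3c (336 and 37) and the neurofilament-like protein Ina (193 and 22). Dnmt3c is a near copy of Dnmt3b that lies beside it on chromosome 2, so its counts are uncertain.

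Most genes called at d8 had the same call on a neighbouring day, and the comparisons of the days use separate libraries of the same 2 lines. Genes at least 3-fold higher numbered 350 (2.7% of the 12983 compared) at d6 and 1199 (8.68% of 13808) at d10, and genes lower 549 (4.23%) and 431 (3.12%). Of the 737 genes higher at d8, 186 were also higher at d6, which is 25.2% of the genes of d8 and 53.1% of those of d6, and 556 were also higher at d10, 75.4% of the genes of d8 and 46.4% of those of d10. Of the 499 genes lower at d8, 269 (53.9%, and 49.0% of those of d6) were also lower at d6 and 201 (40.3%, and 46.6% of those of d10) at d10. The list medians show the same order of days. Mesenchyme-like genes stood at 1.46, 1.77 and 2.86 at d6, d8 and d10 and collagens at 0.66, 1.74 and 2.73, while pluripotency genes stood at -2.56, -2.13 and -1.17. Smooth muscle-like genes had their highest median of the 3 days at d8, with 1.64 at d6 and 2.42 at d10. Acta2 alone was 13.4-fold higher at d6 and 12.2-fold at d10.

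**Figure D5:**
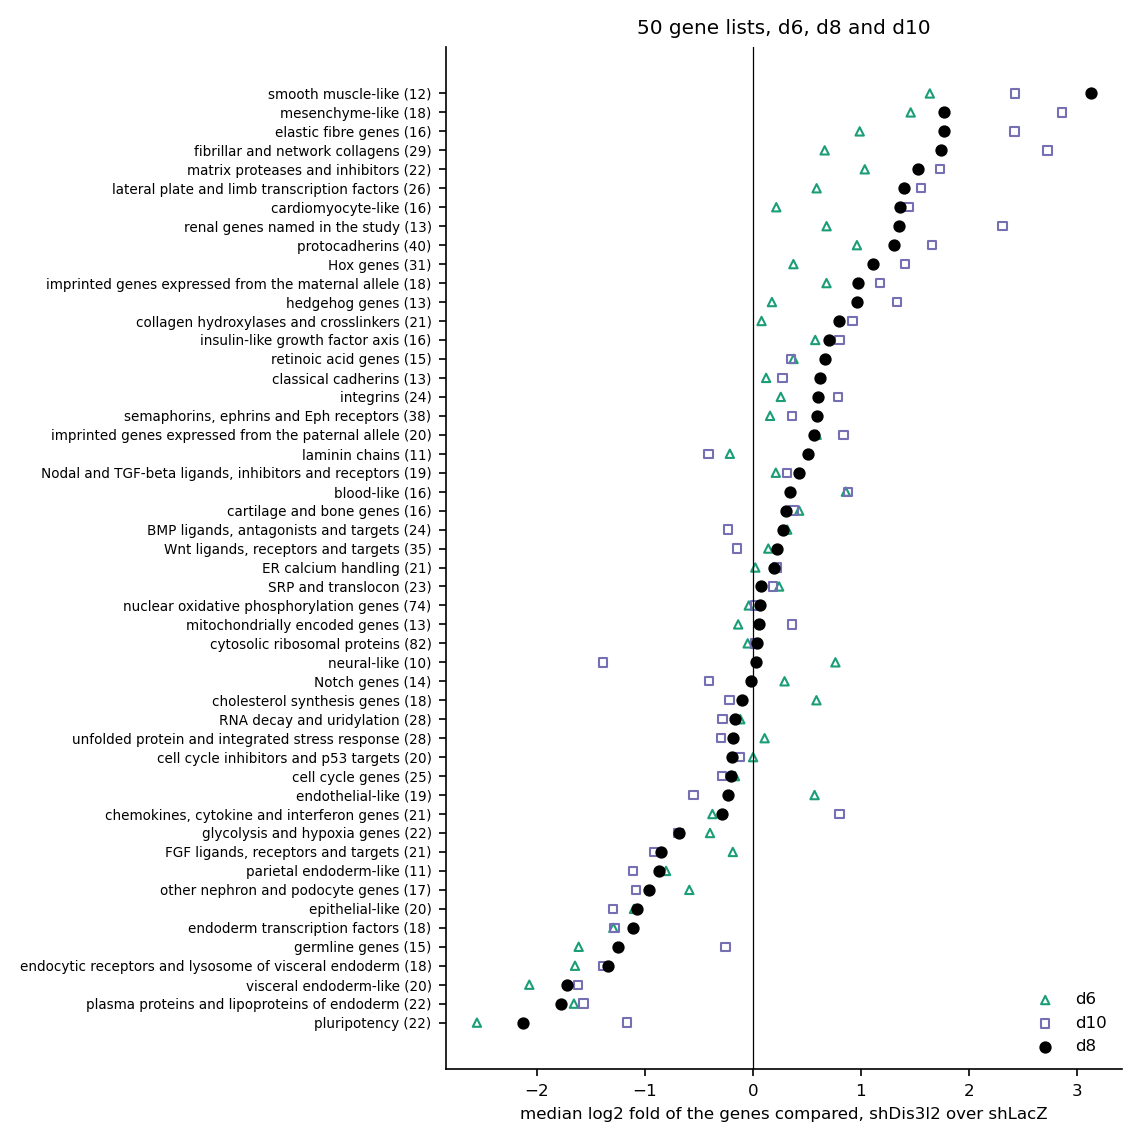
Median log2 fold of shDis3l2 over shLacZ (x axis) of the genes compared in 50 gene lists with at least 10 genes compared at d8 (number in parentheses), with filled circles for d8, triangles for d6 and squares for d10. Smooth muscle-like genes stand at the top with 3.13 at d8, against 1.64 and 2.42 on the neighbouring days, and pluripotency genes at the bottom with -2.13, against -2.56 and -1.17.

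A few genes were called at d8 with less than 1.5-fold differences at both d6 and d10, namely 9 higher (1.22% of the genes higher) and 5 lower (1.002% of those lower). The 5 higher of highest level were Eva1b (115 and 408 reads, 3.05-fold, 95% interval 2.48 to 3.79), Crabp1, which binds retinoic acid (71 and 278 reads, 3.37-fold, 2.59 to 4.43), Klhl32 (9 and 46 reads), the prostaglandin receptor Ptger1 (6 and 39 reads), on chromosome 8, and the ATP-gated channel P2rx3 (9 and 34 reads). The 5 lower were Lars2, the mitochondrial leucyl-tRNA synthetase (8699 and 3128 reads, 0.309, 0.297 to 0.322), Ret (0.262, 0.182 to 0.371), Slfn9 (55 and 18 reads), the helicase Ddx43 (37 and 12 reads) and Tmem154 (17 and 5 reads). Lars2 is by far the most abundant of them, at 515 and 159 CPM. Days other than d6 and d10 did not enter this rule. Lars2 was called the other way at d0, and at d12 it stood at 0.413 of shLacZ (0.386 to 0.442). For genes of few reads the neighbouring days are imprecise, as for Ptger1 at d10 (8 and 29 reads, 0.633 to 3.59). Some stood near the limit on the side of d8, as Crabp1 at d6 (1.41-fold, 1.165 to 1.707) and Ret at d10 (0.669, 0.422 to 1.08). Klhl32 stood the other way on both days, at 0.76 at d6 and 0.88 at d10.

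At d8, genes of chromosome 8 stood apart by their median. Their median log2 fold was -0.29 over 724 genes, while the medians of the other chromosomes lay between -0.10 and 0.12. Of the 724 genes, 18 were higher and 31 lower, beside 5.47% higher and 3.71% lower over all genes compared. The median of chromosome 8 was -0.36 at d6, -0.37 at d10 and -0.33 at d12, and -0.28 at d2 and at d4. At d0 it was -0.47, where the median of all genes compared was -0.32. On the earlier days it was not alone, since chromosome 16 stood at -0.47 at d0, -0.29 at d2 and -0.22 at d4. The median of chromosome 16 was -0.15 at d6, -0.03 at d10 and -8.2e-05 at d12. Without the genes of chromosome 8, an alternative chosen after the data were seen, 719 genes were higher and 468 lower. The part of this displacement in the values of Hand2, Sfrp1, Sall1, Calr, Cdh1, Col4a1, Col4a2, Foxc2 and Ptger1 was not tested.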

How the data were processed

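PolyA RNA was sequenced, and the authors aligned the reads to GRCm38 with Subread and made the read counts of each gene with featureCounts. These counts were deposited as whole numbers, not normalized. The submitters' processing notes also name FastQC and limma. A second table deposited by the authors holds CPM made with edgeR, which equals the CPM of the count plus 0.25 over its 16181 listed genes and served for gene names and as protein-coding genes, while GENCODE M21 gave the rest. RPKM used the gene lengths deposited with the counts. In all, 21939 of 50686 genes were taken as protein-coding.

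CPM was computed here from the counts with library totals over all genes and a prior count of 0.25, while printed CPM hold no prior. Each ratio of reads carries its 95% Clopper-Pearson interval, and shares carry exact binomial intervals. Reads were not counted by molecular identifiers and may repeat a molecule, so intervals and floors cover counting error only. The comparison, its 56 gene lists and the rule for named genes were chosen with earlier results of these data known, so no list was tested. Genes were named as the 12 largest rises and falls by the interval bound nearest to 1 among genes reaching 10 CPM, the 6 of highest level each way, up to 4 called members of a list each way (the 2 of highest level where none was called), the 5 of highest level each way among genes called at d8 alone, and all genes the study named. Every other gene named was chosen after its values were seen. Alternatives were TMM factors of edgeR 4.0.16 and size factors of DESeq2 1.42.0 in R 4.3.3 over the 14 libraries, protein-coding totals, other minimum CPM, folds and prior counts, and thinning of the deeper library. The calls and intervals were also run on simulated libraries that vary by counting error only, with planted changes well above 3-fold. Such libraries cannot check variation between real libraries or calls near 3-fold. The other steps used matplotlib 3.10.9, pandas 2.3.3, scipy 1.17.1 and numpy 2.4.6 under Python 3.11.15. The sequences of the hairpins were not used here. The calls among the BMP genes are not reported here.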

Additional observations from a re-analysis of the deposited data

Results flagged for a closer look

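Some genes were named for the size or level of their difference, for small differences at d6 and d10, or by the study. Among these, the following 3 reached 1 CPM and were at least 3-fold different the other way on an earlier day. In each, the ratio between the libraries at d8 and on that day lay on opposite sides of 1. Each day is 1 library a side, and the difference between the days was not tested. Col3a1, 5.39-fold higher at d8, was at 0.0710 of shLacZ at d4 (95% interval 0.0402 to 0.119), with 88 and 18 reads in shLacZ and shDis3l2. Postn, 6.74-fold higher at d8, was at 0.0413 at d4 (0.0128 to 0.104), with 42 and 5 reads. The shLacZ library of d4 is the shallowest of the series, with 7178712 reads on genes. Lars2, at 0.309 of shLacZ at d8, was 7.29-fold higher in shDis3l2 at d0 (7.17 to 7.42), with 16228 and 78575 reads. The shDis3l2 library of d0 had the lowest share of reads on protein-coding genes in the series, 75.3%, and the lowest TMM factor, 0.623. How far the composition of that library enters the Lars2 ratio was not tested.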

How the results depend on the processing

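With TMM factors, DESeq2 size factors, protein-coding totals, a thinned deeper library or a prior count of 2, the number of genes higher lay between 684 and 752 and that of genes lower between 467 and 539. It moved most with the minimum CPM and the fold. Without a minimum CPM 1648 genes were higher and 1556 lower, with a minimum of 5 CPM 458 and 261, at 2-fold 1570 and 1143, at 4-fold 444 and 258, and with the interval bound nearest to 1 at 3-fold 382 and 191. Of the genes called with library totals, 684 of those higher and 486 of those lower were also called with TMM factors. The percentage of Dis3l2 lay between 93.7 and 97.1% over the 4 scalings. Genes called at d8 with small differences at d6 and d10 numbered 29 higher and 21 lower when up to 2-fold was allowed on those days. With the limit of 1.5-fold and TMM factors or DESeq2 size factors, they numbered 8 and 4. The median of chromosome 8 was -0.35 with TMM factors. The median of the noncoding RNA targets of DIS3L2 turned to 0.0844 with a minimum of 5 CPM, where 1 gene is compared, and those of the laminins and of the cartilage and bone genes turned to -0.34 and -0.33. Without a minimum CPM the median of the histone genes turned to 0.14 and that of the chemokine, cytokine and interferon genes to 0.0033. Of the medians within 0.05 of 0, those of the neural-like genes, the ribosomal protein genes and all genes compared changed sign with TMM factors. That of the Notch genes stayed negative, at -0.07. Leaving out a replicate was not possible with 1 library a side, and no paired analysis was possible because each group compared holds 1 library. Depth limits genes near 1 CPM most, since their intervals are the widest.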
